A study of Mus musculus with 15 samples.

Results

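The genes Stat2, Stat3, Stat4, Stat5a, Stat5b and Stat6, each with 5 kb upstream of its start, were followed across 15 mouse libraries of reduced representation bisulfite sequencing (RRBS), which reads DNA methylation mostly in CpG-rich stretches next to a restriction site. Unmethylated cytosines are converted by bisulfite, and the percentage of unconverted reads at a CpG is its methylation level. The 6 genes, of 31492 gene symbols in the annotation, were chosen by family with methylation differences of these libraries already known, and the values that led to the choice are not recorded. The differences below are therefore a description of these genes, and adjusted p-values are over all windows of the series. Within them 409 CpGs had at least 1 read, 212 had 10 reads in every library of some comparison, and 105 had 10 reads in all 15 libraries. These CpGs gave 31 windows of 1 kb with at least 3 CpGs, out of 72770 such windows in the series, and 12 testable regions around annotated start sites out of 16 annotated.

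All cells were sorted from bone marrow of mice of the C57BL/6 strain. The double mutant group (n = 3) has the genotype Mx1-cre+;Dnmt3a-/-;Idh2 R140Q, is labelled as malignant stem and progenitor cells, and was sorted with the surface markers used for megakaryocyte-erythroid progenitors (MEP): no lineage markers, cKit+, Sca1-, CD34-, Cd16/32-. The Idh2 R140Q groups have the genotype Mx1-cre-;Dnmt3af/f;Idh2 R140Q, the knockout groups Mx1-cre+;Dnmt3a-/-, and the wild type groups Mx1-cre+;Dnmt3af/f, and each of these has MEP (n = 2) and granulocyte-macrophage progenitors (GMP, n = 2), which differ from MEP in carrying CD34 and Cd16/32. The wild type mice therefore carry the floxed Dnmt3a gene and the Cre, whereas the Idh2 R140Q mice carry the floxed gene without the Cre. The Mx1 promoter drives Cre in blood cells and in other tissues that respond to interferon, so deletion by this Cre is not limited to the sorted cells. Titles add the tag M140 to both groups with Idh2 R140Q and the tag GFP to the others. Libraries are called biological replicates, with no word on separate animals, so p-values measure the spread between libraries only. The sources used here give no age and no inducing treatment.

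Signal transducers and activators of transcription (STATs) lie in the cytoplasm until a cytokine receptor with a bound Janus kinase phosphorylates them. They then pair up, enter the nucleus and bind DNA, often at the palindrome TTCNNNGAA. In blood formation Stat5a and Stat5b act downstream of erythropoietin and thrombopoietin, and Stat3 acts downstream of interleukin-6 and the granulocyte colony-stimulating factor. Stat2 joins Irf9 in the type I interferon response, Stat4 carries the signal of interleukin-12, and Stat6 that of interleukins 4 and 13. On chromosome 11 the genes Stat5b (100642045-100712038, minus strand), Stat5a (100720665-100746483, plus strand) and Stat3 (100746412-100800854, minus strand) stand side by side (mm9), so that Stat5a and Stat5b start back to back and the far ends of Stat5a and Stat3 overlap. Stat6 (127080042-127098013) and Stat2 (127707629-127729905) lie on the plus strand of chromosome 10, and Stat4 (52043992-52164032) on the plus strand of chromosome 1.

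The stretches below hold the CpGs of the 7 windows that passed the call rule in at least 1 comparison, an adjusted p under 0.05 together with group means that differ by 10 percentage points or more. Each is the mm9 plus strand, 5′ to 3′, with 10 bases on either side and the measured CpGs in capitals. The Stat5a gene start is an exception, cut at 30 bases with fewer than 10 after its last CpG. For the Stat5a gene start the pair of CpGs upstream of the gene is shown, and the CpG in the untranslated exon is not. Labels such as coding exon give the annotated place of the measured CpGs, not of every base between them.
Stat5a coding exon, chr11:100741008-100741140: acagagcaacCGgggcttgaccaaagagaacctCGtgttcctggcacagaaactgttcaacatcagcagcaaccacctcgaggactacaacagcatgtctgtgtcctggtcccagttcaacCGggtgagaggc
Stat5a gene start, chr11:100720604-100720633: ggtcttggccCGgatggtattCGagtaggc
Stat5b intron, chr11:100681272-100681429: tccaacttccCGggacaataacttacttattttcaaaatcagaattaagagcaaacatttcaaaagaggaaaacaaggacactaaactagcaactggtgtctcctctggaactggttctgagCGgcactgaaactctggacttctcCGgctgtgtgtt
Stat5b exon and intron, chr11:100655815-100655953: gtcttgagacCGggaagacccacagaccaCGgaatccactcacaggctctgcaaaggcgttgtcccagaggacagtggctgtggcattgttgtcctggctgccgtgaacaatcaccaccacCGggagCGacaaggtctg
Stat6 exon and intron, chr10:127087680-127087856: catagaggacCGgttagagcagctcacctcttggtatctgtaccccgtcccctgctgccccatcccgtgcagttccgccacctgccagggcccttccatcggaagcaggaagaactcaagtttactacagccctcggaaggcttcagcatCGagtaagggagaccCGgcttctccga
Stat6 coding exon, chr10:127094045-127094299: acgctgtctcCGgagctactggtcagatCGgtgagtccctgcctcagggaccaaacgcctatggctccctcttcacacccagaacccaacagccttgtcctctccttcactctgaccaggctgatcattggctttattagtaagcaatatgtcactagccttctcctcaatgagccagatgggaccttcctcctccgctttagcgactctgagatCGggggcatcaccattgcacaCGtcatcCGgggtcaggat
Stat4 intron, chr1:52090718-52090858: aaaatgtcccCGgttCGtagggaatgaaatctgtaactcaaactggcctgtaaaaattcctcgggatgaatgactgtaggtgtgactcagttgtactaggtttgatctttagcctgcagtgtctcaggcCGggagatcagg
None of these stretches held TTCNNNGAA, which reads the same on both strands and overlaps no other motif searched. The 9 RefSeq promoters of these genes (GRCm38.p6, 250 bases before to 50 after a start) did not hold it either, while 2726 of all 32851 promoters of that length did (8.3%). These promoters ranged from 2 CpGs at Stat4 to 50 at Stat5b. Stat5a has a start with 5 CpGs and another with 27, Stat2 has 22 CpGs, Stat3 has 15 and Stat6 has 8. No match says only that these letters are not in the stretch.

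Across all genotypes and both cell types the main start sites of Stat2, Stat3, Stat5b and Stat6 were close to unmethylated, and the gene bodies were mostly methylated. The main start of Stat4 was not measured, and that of Stat5a is described with the double mutant. Over CpGs with 10 reads in all 15 libraries, the 20 CpGs within 1 kb of the Stat3 start averaged 0.386%, the 22 at the Stat5b start 0.547%, the 2 at the Stat6 start 0.877%, and the 3 at the Stat2 start 0%. Outside the start, the mean level was 94.5% in Stat6 (7 CpGs), 87.5% in Stat2 (6 CpGs), 83.7% in Stat5b (18 CpGs), 80.8% in Stat5a (7 CpGs) and 61.7% in Stat4 (9 CpGs), where the window at an annotated internal start site (52065001) was itself close to unmethylated. Stat3 differed from the other genes with 33.7% over 10 CpGs, most of which fall into an unmethylated coding exon and an intron of intermediate level. In the start-site regions tested, no library exceeded 1.65% at the main Stat3 start (up to 30 CpGs), 2.18% at the Stat5b start (29 CpGs), 2.55% at the Stat2 start (7 CpGs) or 5.35% at the Stat6 start (6 CpGs). Read counts per library and window ran from 30 to 1850, and the error of a level is given as the SD over libraries, because reads of 1 restriction fragment are not independent molecules.

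Facts of the whole series touch every result that follows. Libraries held 28001420 to 31657332 CpG reads in the double mutant, 19306705 to 24587340 in Idh2 R140Q, 20541812 to 26086791 in the knockout and 30751438 to 35204906 in wild type. Reads on the Y chromosome were 0.0199 to 0.0386% of autosomal reads in the mutant groups and 0.0054 to 0.00575% in wild type, and reads on the X chromosome were 1.17 to 1.47% in the mutant groups and 2.21 to 2.25% in wild type. Mutant genotype, sex chromosome content and depth therefore cannot be told apart in comparisons with wild type, and only autosomes were tested. Every double mutant library also held more reads than any knockout (up to 26086791) or Idh2 R140Q library (up to 24587340). Genotype and depth cannot be told apart in those comparisons either. Methylated reads on mitochondrial DNA, which is largely unmethylated, made up 0.28 to 3.27% over all libraries and 1.62 to 3.27% in wild type, so levels of a few percent are near that background.

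MEP were set against GMP over the genotypes that have both, weighted equally, to ask whether these genes differ between the lineages. A coding exon of Stat5a was lower in MEP, with a difference of -31.4 points, and no other window of the 6 genes was called. The 1 called window stood among 15 tested (6.67%), beside 0.325% of all 30726 windows called in either direction and 0.0683% called lower.

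The Stat5a exon window has 3 CpGs, at positions 100741018, 100741041 and 100741129, the first of them 20353 bp into the gene. Its level was 46.1% and 31.7% in Idh2 R140Q MEP, 56.2% and 51.2% in knockout MEP, and 37.5% and 53.5% in wild type MEP. In GMP it was 76.9% and 89.8% in Idh2 R140Q, 66.2% and 60.9% in the knockout, and 89.9% and 80.6% in wild type. All 6 MEP libraries were lower than all 6 GMP libraries. The means were 46.0% ± 9.63 in MEP and 77.4% ± 11.96 in GMP (SD over libraries, n = 6 each), and the adjusted p of the quasi-binomial model was 0.0067. With the libraries of a genotype blocked by title number in this model, the adjusted p was 0.108 and the window was not called.

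Within a genotype the Stat5a exon differed by -44.4 points between MEP and GMP in Idh2 R140Q, by -9.89 points in the knockout and by -39.7 points in wild type. Idh2 R140Q GMP averaged 83.3% and knockout GMP 63.6%, against 85.2% in wild type GMP. The difference between the knockout effect in MEP and that in GMP, tested over 4 CpGs of this window, was not called (adjusted p 0.746 by the quasi-binomial model). The CpG at position 100741129 was the lowest of the 3 in all 7 groups but Idh2 R140Q GMP, with 25.3% in Idh2 R140Q MEP, 44.8% in knockout MEP and 34.8% in wild type MEP, against 84.2%, 45.7% and 70.9% in the GMP of those genotypes. The CpG at 100741018 was 57.5%, 60% and 58.8% in the same MEP groups and 87.3%, 81.1% and 98.9% in the GMP groups. The 3 double mutant libraries, sorted as MEP, had 41.7%, 51.5% and 42.3% in this window, within the range of the MEP of the other genotypes. Against Idh2 R140Q MEP the double mutant differed by 6.26 points over these CpGs (adjusted p 0.35), and none of the genotype comparisons called the window.

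**Figure D1:**
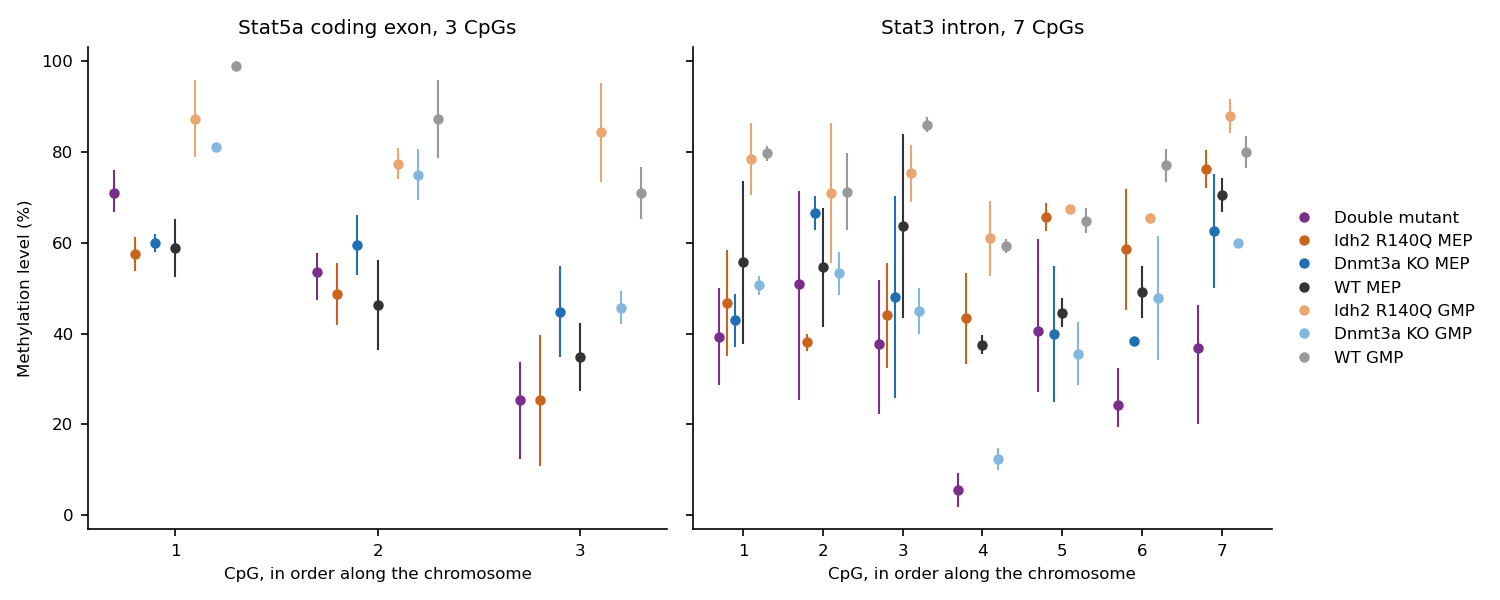
Methylation level (%, y axis) of each CpG in order along the chromosome (x axis) in the Stat5a coding exon and the Stat3 intron, by group. Points are means over libraries and lines run from the lowest to the highest library (n = 3 double mutant, n = 2 others; a group is left out at a CpG with under 2 libraries of 10 reads). In Stat5a the MEP groups and the double mutant sit below the GMP groups at most CpGs, and knockout GMP comes down to 45.7% at the last one.

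An annotated start site of a shorter Stat5a transcript lies inside this stretch, and its region (100739333-100741333) holds the same 3 CpGs. Tested among start-site regions the same levels gave an adjusted p of 0.0254, and 1 of 8 start-site regions of the 6 genes was called, beside 0.0751% of 13317. Leaving out any of 10 of the 12 libraries ended this call among start sites. In those runs 0 to 0.0451% of all start-site regions were called. The Stat5a window at the end of the gene (100745001) averaged over 95% in the MEP and the GMP of Idh2 R140Q, the knockout and wild type.

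The window outside these genes most like the Stat5a exon over the 15 libraries, by root mean square difference, lay 16395 bp from the start of Dusp23, a phosphatase gene, with 8.95 points. It was followed by a window inside Rhbdl3 (8.99 points) and a window 21268 bp from the start of Tob1 (11.5 points), out of 8301 windows whose libraries ranged over at least 20 points. The Stat5a exon itself ranged over 58.2 points.

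The Stat3 intron window (100752001), 48037 bp from the start of Stat3, was the other one of intermediate level in both cell types. Over 6 CpGs it had 49.8% and 62.1% in Idh2 R140Q MEP, 40.3% and 59.2% in knockout MEP and 45.0% and 65.4% in wild type MEP. In GMP it had 77.6% and 71.2% in Idh2 R140Q, 42.0% and 52.9% in the knockout and 76.1% and 74.3% in wild type. The knockout libraries of both lineages overlapped, while in the other genotypes every MEP library was below every GMP library. The difference of -12.04 points between MEP and GMP was not called (adjusted p 0.735 by the quasi-binomial model). Genotype differences in the same CpGs were -16.6 points for knockout against wild type (adjusted p 0.269) and 16.6 points for Idh2 R140Q against the knockout (adjusted p 0.298), neither of them called.

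Of the listed markers, 3 of 11 for MEP and 3 of 10 for GMP had a measured start-site region (5 and 4 regions), and none of these was called between MEP and GMP. With 0.0751% of all start-site regions called, this does not show whether the sorted cells match their labels.

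Single mutants were set against wild type, and against each other, over MEP and GMP with equal weight. No window of the 6 genes was called in any of these comparisons. For the knockout against wild type 0 of 21 windows were called, beside 1.33% of all windows. An unadjusted p under 0.05 was reached by 6 (16.3% of all windows), and limma called 0 (0.232% of all windows). For Idh2 R140Q against wild type 0 of 15 were called, beside 3.19%, with 1 at an unadjusted p under 0.05 (18.3% of all windows) and 0 by limma (1.21%). For Idh2 R140Q against the knockout 0 of 18 were called, beside 3.42%, with 0 at an unadjusted p under 0.05 (18.3% of all windows) and 0 by limma (1.89%). Differences ran from -16.6 to 4.90 points for the knockout against wild type, with a median of 0.60 points beside 0.28 points over all windows. For Idh2 R140Q against wild type they ran from -4.26 to 9.03 points, with a median of 0.43 points beside 0.53 points. Among start-site regions 0 of 11 were called for the knockout against wild type (background 0.707%), with 4 under an unadjusted p of 0.05 (16.1% of all regions). The count was 0 of 8 for Idh2 R140Q against wild type (1.47%) and 0 of 9 for Idh2 R140Q against the knockout (1.68%), with 0 under an unadjusted p of 0.05 in either (17.5% and 15.9% of all regions). Limma called 0 in all 3 comparisons, beside 0%, 0.154% and 0.334% of all regions in the same order.

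By gene, the knockout and Idh2 values were as follows. Stat5a, over 4 CpGs of the exon window, averaged 59.6% in the knockout and 66.5% in wild type (adjusted p 0.442). The Stat6 window just upstream of the gene had 3.37% and 2.7% in knockout GMP and 13.9% and 0% in knockout MEP, against 0% in 3 wild type libraries and 0.413% in the other one (4.90 points, adjusted p 0.109). The 13.9% of 1 knockout MEP library set this difference. The Stat4 intron window had 96.1% and 96.6% in Idh2 R140Q GMP and 92.9% and 94.6% in Idh2 R140Q MEP, against 90.2% and 95.9% in wild type GMP and 68.0% and 89.9% in wild type MEP. Its difference of 9.03 points between Idh2 R140Q and wild type was not called (adjusted p 0.395), and 1 wild type MEP library was well below the other 3 wild type libraries. In Stat5b the largest difference was 4.31 points at a coding exon (100652001) in Idh2 R140Q against wild type, with 94.9% and 90.6% (adjusted p 0.635). Stat2 had 1 window in all these comparisons, at its start, and it averaged under 1% in every group. No window of these genes was called for a difference between the effect of a single mutation in MEP and in GMP. For the knockout 0 of 21 were called, with 3 under an unadjusted p of 0.05 (6.81% of all windows) and a smallest adjusted p of 0.65. For Idh2 R140Q 0 of 15 were called, with 1 under an unadjusted p of 0.05 (4.07% of all windows) and a smallest adjusted p of 0.992. Limma called 0 in both, and 0% of all windows were called in either test, by the main model as by limma.

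The double mutant was set against MEP of each other genotype. Against wild type MEP, 5 of 29 windows of the 6 genes were called (17.2%), beside 14.4% of all 68179 windows. Of these 3 were higher (background 11.8%) and 2 were lower (2.59%). Against Idh2 R140Q MEP 4 of 21 were called (19.05%), beside 13.7%, with 3 higher (10.1%) and 1 lower (3.59%). Against knockout MEP 0 of 21 were called, beside 13.1%, although 7 had an unadjusted p under 0.05 (30.5% of all windows), and limma called 0 (11%). The shares called against wild type and Idh2 R140Q MEP are near the background, and the 3 comparisons share the double mutant libraries. The median difference was 0.13 points against wild type MEP, beside 2.61 points over all windows. It was -0.44 points against Idh2 R140Q MEP (0.98 over all windows) and -0.64 points against knockout MEP (0.43 over all windows).

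**Figure D2:**
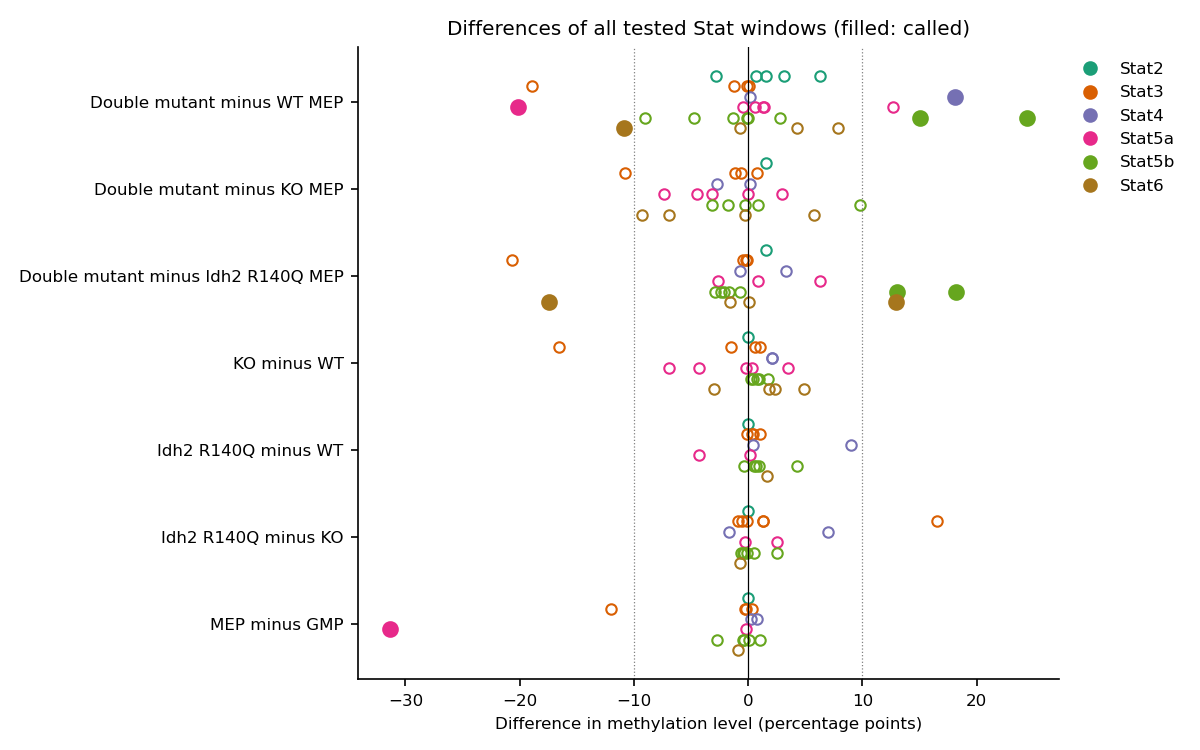
Difference in methylation level (percentage points, x axis, left of 0 lower in the group given before "minus") of every tested Stat window in each of 7 comparisons (rows), coloured by gene. Filled points passed the call rule, and dotted lines mark 10 points. The farthest point is the Stat5a exon at -31.4 in MEP against GMP, and the knockout and Idh2 R140Q rows hold no filled point.

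The start of Stat5a was lower in the double mutant. Its window (100720001) has a pair of CpGs upstream at 100720614 and 100720625 and a CpG in the untranslated exon at 100720827. The level was 0.719%, 3.77% and 5.32% in the double mutant and 23.1% and 23.6% in wild type MEP. The groups did not overlap, and the means of 3.27% ± 2.34 (n = 3) and 23.4% ± 0.355 (n = 2) differed by -20.1 points (adjusted p 0.00149). In the same CpGs Idh2 R140Q MEP had 23.0% and 28.6%, and knockout MEP had 6.25% and 15%, between the double mutant and wild type. The double mutant differed from knockout MEP by -7.35 points (adjusted p 0.128), with no overlap of libraries and no call. Against Idh2 R140Q MEP this window had under 3 CpGs with 10 reads, and with the minimum lowered to 1 CpG the difference was -27.8 points (adjusted p 0.00146). In GMP the window had 11.4% and 18.0% in the knockout and 13.7% and 7.23% in wild type.

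Single CpGs of the Stat5a start did not all behave alike. At 100720827 the double mutant averaged 7.95% and wild type MEP 38.3%, and at 100720614 they averaged 1.04% and 25.9%. At 100720625, 11 bases on, both were low, with 1.15% and 5.17%. The start-site region as a whole, 15 CpGs of which 12 lie in the unmethylated first intron and exon, had 0.641% in the double mutant and 4.45% in wild type MEP (-3.81 points, adjusted p 0.00416), which is under the 10 points of the call rule.

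**Figure D3:**
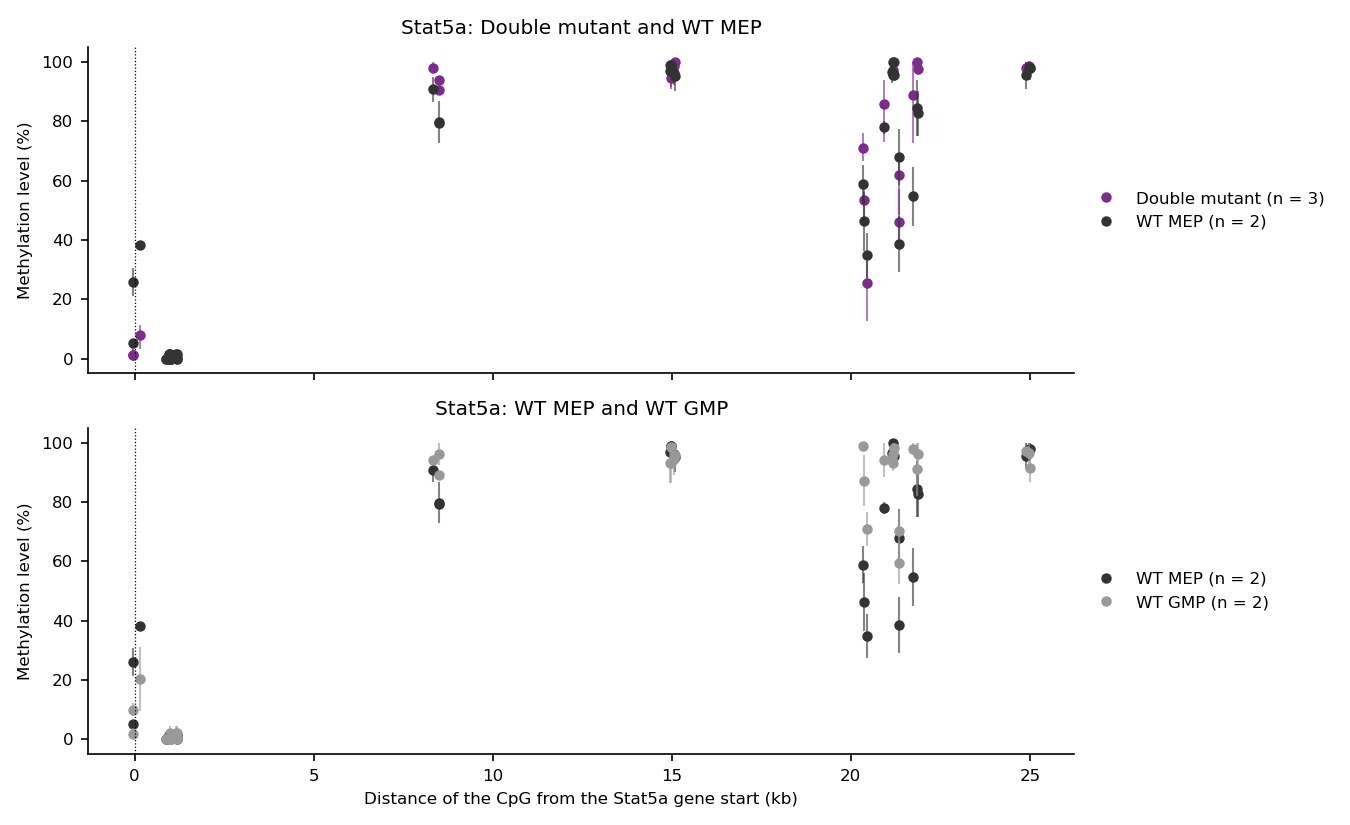
Methylation level (%, y axis) of CpGs along Stat5a by distance from the gene start (kb, x axis). The upper panel shows the double mutant (n = 3) and wild type MEP (n = 2), the lower panel wild type MEP and wild type GMP (n = 2 each); points are means and lines run from the lowest to the highest library, for CpGs with 10 reads in all libraries of the group. The double mutant stands below wild type MEP at the start of the gene, and wild type MEP stands below wild type GMP at the first CpGs past 20 kb.

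Stat5b, which starts next to Stat5a on the other strand, was higher in the double mutant at a pair of gene body windows, while its start had 0.292% in the double mutant and 0.38% in wild type MEP (22 CpGs). The intron window (100681001) had 97.0%, 98.4% and 94.8% in the double mutant and 72.2% and 72.5% in wild type MEP. The difference of 24.4 points was called (adjusted p 0.00062) with no overlap. Idh2 R140Q MEP had 74.6% and 82.4%, which put the double mutant 18.2 points higher (adjusted p 0.00837), a call that ended without Idh2 R140Q MEP replicate 1 (adjusted p 0.0747) or with dispersions from the compared groups alone (0.0591). Its CpG at 100681282 averaged 94.5% in the double mutant, 40.5% in Idh2 R140Q MEP and 59.1% in wild type MEP. The CpG at 100681394 averaged 96.1% in the double mutant, 90.1% in Idh2 R140Q MEP and 75.6% in wild type MEP. All 3 CpGs of the window averaged higher in the double mutant than in either of these groups, the other one (100681418) with 98.6% against 86.7% in Idh2 R140Q MEP. In knockout MEP the window had 90.8% and 71.6%, at a depth too low for the test.

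The other Stat5b window (100655001), on an exon and intron near the end of the gene, had 95.7%, 100% and 100% in the double mutant against 89.9% and 77.1% in wild type MEP and 84.6% and 86.3% in Idh2 R140Q MEP. It was 15.04 points higher than wild type (adjusted p 0.0221) and 13.1 points higher than Idh2 R140Q MEP (adjusted p 0.0443). Against wild type the call ended without double mutant replicate 2 or 3 (adjusted p 0.0826 and 0.0543) or wild type MEP replicate 2 (8.64 points, 0.13), and with the compared groups alone (0.121). Against Idh2 R140Q MEP it ended without double mutant replicate 2 or 3 (0.139 and 0.0978) or either Idh2 R140Q library (0.108 and 0.149), and with the compared groups alone (0.11). Knockout MEP had 86.8% and 90.6%, 9.84 points below the double mutant (adjusted p 0.0895). A further Stat5b intron window (100702001), near its start, had 4.63%, 7.69% and 4.62% in the double mutant against 18.3% and 11.1% in wild type MEP. Its -9.06 points (adjusted p 0.0212) fell short of 10, but it was called without double mutant replicate 2 (-10.1 points, adjusted p 0.0284) or wild type MEP replicate 2 (-12.7 points, adjusted p 0.0216).

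Stat6 had a window in each direction. On the exon and intron window (127087001) the double mutant had 95.9%, 98.6% and 97.5%, Idh2 R140Q MEP 84.5% and 84.2%, and wild type MEP 88.7% and 90.3%. The 13.0 points over Idh2 R140Q MEP were called (adjusted p 0.00362, or 0.0674 and no call with the compared groups alone), while the 7.87 points over wild type MEP (adjusted p 0.0108) were under 10. The CpG at 127087830 set the value in Idh2 R140Q MEP, with 45.8% and 50% on 24 reads each, against 93.9% to 100% in the double mutant and 88.9% and 93.3% in wild type MEP.

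The Stat6 coding exon window (127094001) was lower in the double mutant. Over 5 CpGs it had 89.7%, 81.2% and 79.7% against 92.8% and 95.9% in wild type MEP, a difference of -10.9 points (adjusted p 0.0154). Over the 3 CpGs with enough reads in Idh2 R140Q MEP the double mutant had 85.0%, 78.3% and 76.2%, against 96.8% and 97.7%, a difference of -17.4 points (adjusted p 0.0121). The double mutant libraries were all lower than both groups. Against wild type the call ended in limma (adjusted p 0.0856), with the compared groups alone (0.117), and without wild type MEP replicate 2 (0.105) or double mutant replicate 2 or 3, which left -9.69 points (0.0559) and -8.95 points (0.043). Against Idh2 R140Q it ended without Idh2 R140Q MEP replicate 2 (0.132) and with the compared groups alone (0.0613). The CpG at 127094281 averaged 54.9% in the double mutant, 97.2% in Idh2 R140Q MEP, 77.7% in knockout MEP and 93.7% in wild type MEP, while the other CpGs of this window were over 91% in the double mutant. The region around an annotated start of a shorter Stat6 transcript (127092817-127097456) holds these CpGs and gave the only start-site calls of the double mutant, 1 of 11 regions against wild type MEP (background 12.7%) and 1 of 11 against Idh2 R140Q MEP (12.6%), with the same levels. Against knockout MEP 0 of 11 were called (13.8%), with 4 under an unadjusted p of 0.05 (34.3% of all regions) and 0 by limma (10.9%).

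**Figure D4:**
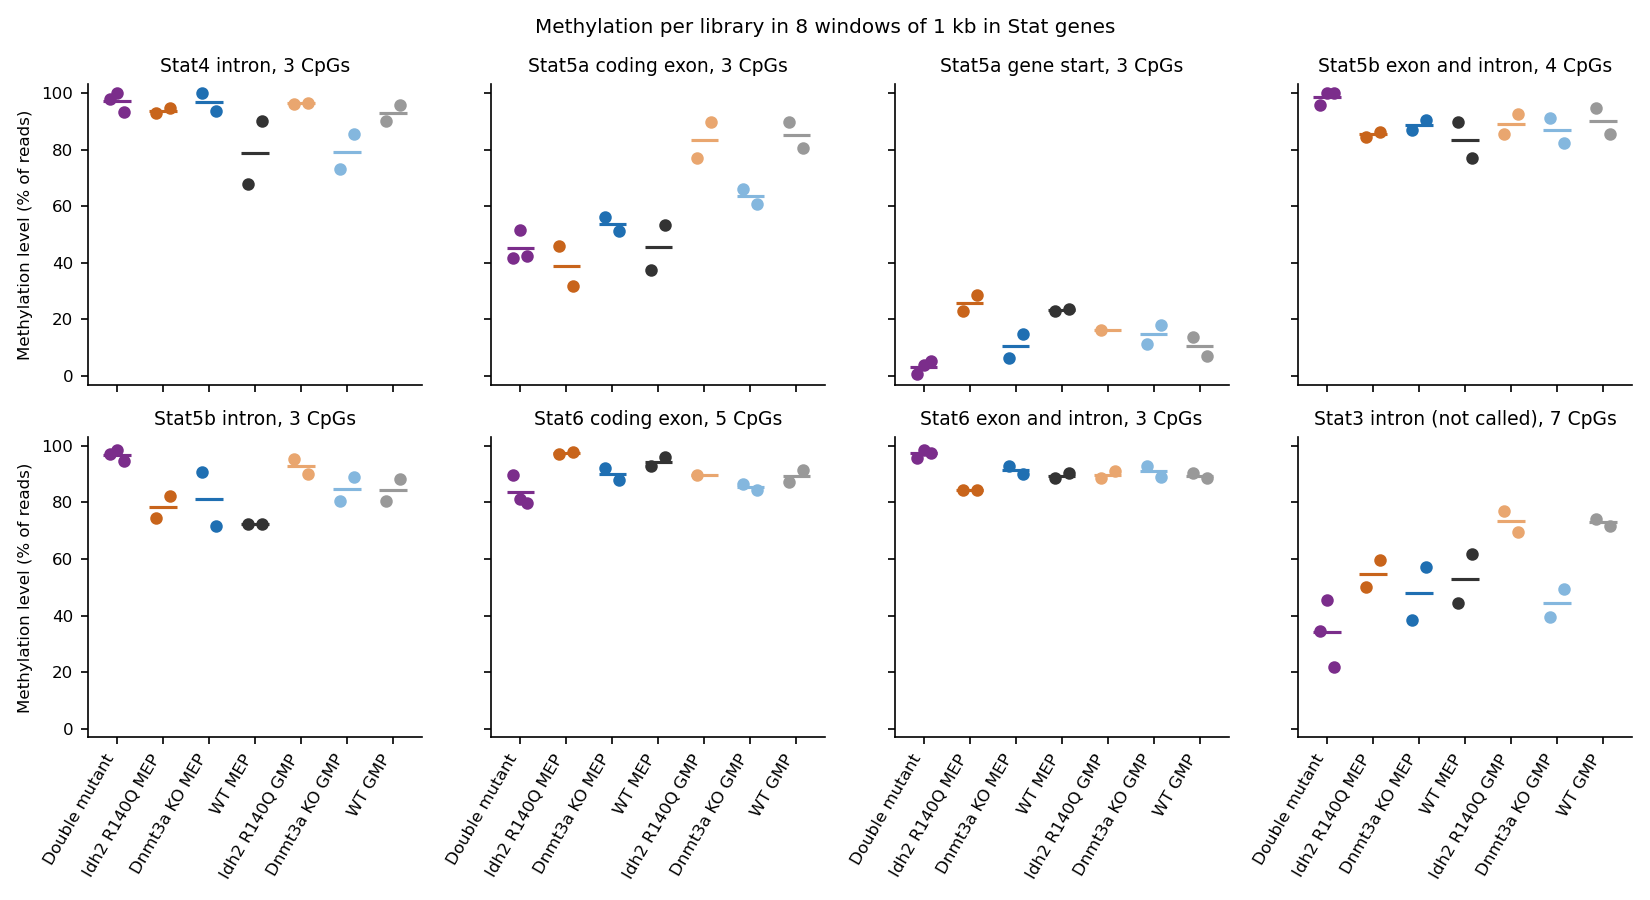
Methylation level (% of reads, y axis) of each library (points) and group mean (bars) in the 7 called windows and the Stat3 intron; groups on the x axis, double mutant n = 3, others n = 2, libraries with under 20 reads in the window not drawn. The double mutant sits at 0.719 to 5.32% at the Stat5a start and at 94.8 to 98.4% in the Stat5b intron, apart from both wild type MEP libraries in each.

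Stat4 had 1 call. Its intron window had 97.8%, 100% and 93.3% in the double mutant and 68.0% and 89.9% in wild type MEP, 18.1 points apart (adjusted p 0.0348). The lower wild type library decided this value, since without it the difference was 7.09 points (adjusted p 0.263). The call also ended without double mutant replicate 1 or 2 (0.0793 and 0.124), in limma (0.0616) and with the compared groups alone (0.18). Idh2 R140Q MEP and knockout MEP had 92.9% to 94.6% and 93.7% to 100%, and the double mutant differed from them by 3.29 and 0.17 points with no call.

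Stat2 and Stat3 had no called window with all libraries in the fit. At the Stat2 start the double mutant had 1.82%, 0.424% and 2.55% against 0% in both wild type MEP libraries, and the 1.60 points (adjusted p 0.0272) are far under the call rule and near the mitochondrial background. The 3 double mutant libraries of the Stat3 intron window had 34.7%, 45.7% and 21.9% over 7 CpGs, against 50% and 59.6% in Idh2 R140Q MEP and 44.4% and 61.6% in wild type MEP. The differences of -20.7 and -18.9 points did not pass (adjusted p 0.105 and 0.0663). Without double mutant replicate 2 both were called, at -26.5 points against Idh2 R140Q MEP (adjusted p 0.0409) and -24.7 points against wild type MEP (adjusted p 0.028). The spread was wide in every MEP group, and the double mutant overlapped wild type MEP but not Idh2 R140Q MEP. The CpG at 100752698 had the lowest level, 5.60% on average in the double mutant, 43.3% in Idh2 R140Q MEP and 37.5% in wild type MEP, and 12.4% in knockout GMP against 59.2% in wild type GMP. A Stat5a window next to the exon described above (100742001) had 78.4%, 74.7% and 61.5% in the double mutant and 56.8% and 61.01% in wild type MEP, a difference of 12.7 points that did not pass (adjusted p 0.0773) but did without double mutant replicate 3 (17.7 points, adjusted p 0.023).

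The double mutant level was also compared with the sum of the single mutant effects in MEP on the logit scale, and 0 of 19 windows were called, beside 5.91% of all windows. Of these 3 had an unadjusted p under 0.05 (21% of all windows), limma called 0 (4.12%) and the smallest adjusted p was 0.104.

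Genes that act with the STATs were listed by role, with earlier results of these data known. Each was described by its start-site region with most measured CpGs. In the double mutant against wild type MEP none of 3 measured Janus kinase genes and none of 15 inhibitors was called. Among 19 measured receptors 3 were higher and 1 was lower, and among 11 partners and targets 1 was lower. Of all 18116 start-site regions 12.7% were called, with 2101 higher and 201 lower. Whether calls differ by the STAT that a gene acts with was not tested. Epor, the erythropoietin receptor that signals through Stat5, was lower, with 6.28% ± 4.33 in the double mutant (n = 3) and 30.3% ± 13.9 in wild type MEP (n = 2; -24.0 points, adjusted p 0.0174). Bcl2l1, a survival gene that Stat5 is known to switch on, was lower as well, with 3.00% and 18.8% (-15.8 points, adjusted p 0.00113). Against knockout MEP and Idh2 R140Q MEP, with 14 and 13 receptors measured, no receptor was called lower and no partner or target was called. The Epor and Bcl2l1 calls therefore stand against wild type MEP alone.

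Lepr, Osmr and Il10ra, receptors that signal through Stat3, were higher in the double mutant. Lepr averaged 43.9% against 4.60% in wild type MEP (39.3 points, adjusted p 2.14e-05), Osmr 13.7% against 1.56% (12.1 points, adjusted p 7.35e-06) and Il10ra 11.7% against 0.457% (11.3 points, adjusted p 0.00322). All 3 were also called higher against knockout MEP and against Idh2 R140Q MEP, by 44.5 and 31.2 points at Lepr, 13.0 and 11.1 at Osmr and 10.6 and 10.6 at Il10ra. Il12rb1, a receptor chain upstream of Stat4, was 24.2 points higher than in knockout MEP (adjusted p 0.0147), and Il6ra 19.7 points higher (adjusted p 0.024). In total 5 of 14 receptors were called against knockout MEP, beside 13.8% of all start-site regions, and 3 of 13 against Idh2 R140Q MEP, beside 12.6%.

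In the single mutants Csf2ra, a chain of the receptor for granulocyte-macrophage colony-stimulating factor, was 22.6 points higher in the knockout than in wild type (adjusted p 0.00944) and 28.2 points higher in Idh2 R140Q (adjusted p 0.00428). Both contrasts share the wild type libraries. Ptpn1, a phosphatase that acts on Janus kinases, averaged 9.93% in Idh2 R140Q and 23.2% in wild type (-13.3 points, adjusted p 0.0221). No other measured kinase, inhibitor, receptor, partner or target was called in those comparisons, and none was called between MEP and GMP. The Csf2ra call in the knockout ended in limma, which called 0 of all 14858 start-site regions. The Csf2ra and Ptpn1 calls in Idh2 R140Q ended with dispersions from the compared groups alone, where 0 of all 13648 start-site regions were called. These fits counted MEP and GMP of a genotype as separate libraries. Libraries of the same title number were not summed over cell types for start-site regions.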

How the data were processed

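The assay was reduced representation bisulfite sequencing of 15 libraries in 7 groups. Per the submitters' processing notes, BSMAP 2.74 and mm9 were used. The deposited files of the authors hold counts per cytosine and strand: methylated reads and all reads, with no normalization and no minimum of coverage. For duplicate removal, trimming and conversion rate the entry is: not given in the sources used here. Reads of 1 restriction fragment that are copies look like separate molecules. All 278504 CpGs on chromosomes 1, 10 and 11 fell on CG in the NCBIM37 (mm9) sequence, so its GENCODE vM1 annotation was used. Promoters came from RefSeq on GRCm38.p6, by symbol, for all 6 genes.

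The members and the pathway and marker lists were chosen with earlier results of these data known, and a member list gives no independent support. Strands were summed. CpGs needed 10 reads in every library of the groups compared, and windows of 1 kb or regions within 1 kb of start sites needed 3 such CpGs. The level of a window is its methylated over all reads. All autosomal windows, and separately all start-site regions, were fitted with a quasi-binomial logistic model with 1 mean per group over all 15 libraries, a squeezed dispersion of at least 1, and an F test of each contrast. The p-values were adjusted by Benjamini-Hochberg over all features of a comparison. Calls needed an adjusted p under 0.05 and 10 points between group means. The model was tested on simulated data that held increases only, in windows of low to intermediate level. Decreases and changes in highly methylated windows were not simulated. Named windows were those called, the smallest p per gene in a comparison without a call, and start-site regions, while named pathway genes had a called start-site region. Single values singled out at 1 CpG were chosen after they were seen. Alternatives were 20 reads, 10 reads in all 15 libraries, 500 bp windows, 1 CpG, 25 points, limma on log2((methylated + 1)/(unmethylated + 1)), dispersion from the compared groups alone, a replicate block, title prefixes summed over cell types, and each library left out. Python 3.11.15, numpy 2.4.6, pandas 2.3.3, scipy 1.17.1, matplotlib 3.10.9, R 4.3.3 and limma 3.58.1 were used. Between replicates of a group, counts differed by more than sampling noise in every group, so no libraries were merged.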

Additional observations from a re-analysis of the deposited data

Results flagged for a closer look

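Among 46 sets of 4 libraries of a genotype, 5 held a library whose gap to the nearest of the others was above the 95% critical value of Dixon for 4 samples, as a share of the range, and chance gives about 1 in 20 for continuous values. All 5 lay in windows close to unmethylated. In 4 of them the other 3 libraries were at 0%, where a single methylated read is enough, so that share does not apply, and 2 are the same library in the same window. In the Stat3 coding exon window (100755001) wild type MEP replicate 2 had 3.665% on 191 reads, against 0.4975 to 0.995% in the other wild type libraries. In the window upstream of Stat3 (100801001) wild type GMP replicate 1 had 0.3035% over the CpGs of the knockout comparison and 0.3906% over those of the Idh2 R140Q comparison, against 0% in the others. In the window upstream of Stat6 (127079001) wild type MEP replicate 2 had 0.4132%, against 0% in the others. In the unmethylated Stat4 intron window (52065001) Idh2 R140Q MEP replicate 1 had 1.709% on 117 reads, against 0% in the other Idh2 R140Q libraries.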

How the results depend on the processing

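No call turned its direction under any alternative run. Against wild type MEP the double mutant had 5 of 29 windows called, with the share of all windows (14.4%) in brackets here and below. The count was 3 of 19 at 20 reads (15%), 2 of 15 at 10 reads in all 15 libraries (14.3%) and 8 of 49 with 1 CpG (12.1%). It was 0 at 25 points (4.83%), 3 with limma (7.41%) and 2 with the compared groups alone (5.99%). With a library left out it was 4 each time (9.96 to 13.2%), not always the same windows. Without double mutant replicate 2 they included the Stat3 intron and Stat5b 100702001, without wild type MEP replicate 2 Stat5b 100702001, and without double mutant replicate 3 Stat5a 100742001. Against Idh2 R140Q MEP the double mutant had 4 of 21 (13.7%). The count was 1 of 11 at 20 reads (14.2%), 1 of 15 at 10 reads in all 15 libraries (14.1%), 0 at 25 points (5.72%) and 0 with the compared groups alone (4.86%). With a library left out it was 2 to 4 (7.74 to 12.1%). Against knockout MEP the double mutant had 0 (13.1%), and 0 to 1 with a library left out (7.66 to 12.1%): the window upstream of Stat6 without knockout MEP replicate 2 (-13.9 points, adjusted p 0.00178), or the Stat5b window 100655001 without double mutant replicate 1 (11.3 points, adjusted p 0.0478). Single mutant comparisons gave 0 windows of these genes under every alternative, but some alternatives called nothing in the whole series. Summing title prefixes called 0 of all 33109 windows for Idh2 R140Q against wild type and 0 of 35369 against the knockout. It called 0.574% of all windows for the knockout against wild type, where the compared groups alone called 0 of 38300. Such a 0 says nothing particular about these genes. Start-site calls numbered 3, and 1 at 10 reads in all 15 libraries, 1 at 25 points, 1 with limma, 0 with the compared groups alone, 1 with the replicate block, and 1 to 3 with a library left out (1 without Idh2 R140Q MEP replicate 2). For MEP against GMP limma, the compared groups alone and the replicate block each called 0 of all 13317 start-site regions. For the double mutant against wild type and Idh2 R140Q MEP, 5 and 5.5% of all regions were called at 25 points. Limma called 8.46 and 9.49%, and the compared groups alone 8.45 and 7%. Interaction tests gave 0, and 1 with 1 CpG (the Stat5a start, double mutant beyond the sum, -23.7 points, adjusted p 0.0468) and 0 to 1 with a library left out (the window upstream of Stat6 without knockout MEP replicate 2). For the double mutant beyond the sum those runs called 3.25% and 4.92% of all windows, beside 5.91% in the main run. Where the cause of such a change lies other than in fewer CpGs or libraries was not tested. By the rule used, the numbers in titles did not pair libraries in all genotypes. Differences between replicates 1 and 2 correlated between GMP and MEP at 0.615 in Idh2 R140Q and 0.438 in wild type but at -0.0658 in the knockout (3985 windows). Between groups of different genotypes they correlated at -0.0931 to 0.0472. The main fits counted MEP and GMP of a genotype as separate libraries, also in Idh2 R140Q and wild type. With the replicate block the MEP against GMP count was 0 in place of 1, beside 0.117% of all windows (Stat5a exon adjusted p 0.108 among windows, 0.448 among start sites). The double mutant count against wild type MEP was 4 (12.4% of all windows), with Stat5a 100742001 called (0.0314) and Stat5b 100655001 (0.0664) and Stat6 127094001 (0.0542) not. Against Idh2 R140Q MEP the count was 3 (11.9%), without Stat5b 100655001 (0.117). The Stat5a exon kept its call in the other 18 of 19 alternatives, and the Stat5a start and Stat5b intron against wild type in 10 of 11 each. The Stat5a start and Stat5b intron could not be tested at 10 reads in all 15 libraries, which is not among their 11. Windows of 500 bp are in none of these counts. Depth limits 10 reads per CpG to 212 of 409 CpGs.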
